A study of Mus musculus with 4 samples.

Results

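The interferon-stimulated genes of the mouse lung were followed through single-cell RNA sequencing of whole-lung suspensions at 4 ages. The list held 44 genes that interferons are known to induce, of which 43 were found by symbol among the 27998 genes of the files. Mx2 was the member not found. The level of each member, and of the 43 together (the summed level), was taken in each library and in each cell type in CPM, that is the unique molecular identifiers (UMIs) of the gene per 1000000 UMIs of all cells of that type in that library. The rule that lists the genes uses no value of these files, but members, lists and markers were chosen with earlier results of these data known.

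All animals were labelled wild-type male C57BL/6 mice, with no treatment named, whose lungs were digested with collagenase D and DNase1 and freed of dead cells, and each age had 1 library: newborn (NB, 10 days), 2 M, 10 M and 18 M, where M stands for months. Because an age is 1 library, no test between ages exists. Each interval below is a 95% interval of counting error alone (exact Poisson for a CPM, exact conditional binomial for a ratio of CPMs), and it holds nothing of the spread between mice. The labels do not give how many animals went into a library. Of 28153 kept cells, NB gave 6377, 2 M gave 5537, 10 M gave 7862 and the library labelled 18 M gave 8377, with a median of 3998.5 to 4308 UMIs per cell by library, and any pair of libraries shared 17 to 28 barcodes.

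The labels of the oldest and the youngest library were at odds with some of the data. Xist, an RNA made from the inactive X of females, stood at 577.7 CPM in the library labelled 18 M, against 0.18, 0.24 and 0.53 CPM in NB, 2 M and 10 M, and 2678 of its 8377 cells held Xist UMIs and no Y-linked UMI, against 1 to 4 cells in each other library. The fetal and neonatal transcript H19 stood at 416.8 CPM in fibroblasts of the library labelled 18 M and was not counted in fibroblasts of the other 3. Of the 172 erythroid cells, 166 were in the library labelled 18 M. Of the 71 plasma cells, 65 were in the library labelled NB. Every direction drawn from the libraries labelled 18 M and NB rests on labels that these values go against, so the ratio of 10 M to 2 M, which uses neither, is given beside the ratios of the sums. Whether a mixed or exchanged sample had a part in any ratio was not tested.

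Interferons are secreted proteins that warn cells of infection. Type I interferons (alpha and beta) signal through the receptor IFNAR, and interferon gamma, made mainly by NK and T cells, signals through IFNGR. Both switch on broad, overlapping sets of genes through STAT proteins and interferon regulatory factors. Type I interferons act chiefly at the interferon-stimulated response element (ISRE) and interferon gamma chiefly at the gamma-activated site (GAS). The products sense viral nucleic acid, block viral replication, disrupt the vacuoles of intracellular pathogens and cut and load peptides for class I antigen presentation, and in the lung these genes also have a resting level without infection.

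The promoter windows show what the members share in sequence beyond the list itself. RefSeq promoters (build GRCm38.p6, the build of the mm10 genome the counts were made on), 250 bases before to 50 bases after a start, were matched by symbol for 33 of the 43 members. The ISRE-type motif GAAANNGAAA, on either strand, was in a window of 18 of the 33 (54.5%), against 3.99% of 27025 genes with a window, and the GAS-type motif TTCNNNGAA, which reads alike on both strands, was in 10 of 33 (30.3%), against 9.55% of the same genes. Each member was placed in a single arm, although the sets that type I interferons and interferon gamma switch on overlap. The interferon gamma arm held Irf1, Tap1, Psmb8, Psmb9, Gbp2, Gbp3, Gbp4, Gbp5, Gbp7, Igtp, Irgm1 and Ifi47, and the type I arm the rest. By arm, the ISRE-type motif was found for 12 of 22 type I members and 6 of 11 interferon gamma members, and the GAS-type motif for 5 of 22 and 5 of 11. Matches are descriptions of letters in a window and not shown sites. The windows of 5 members on which the results below turn are given 5′ to 3′ with the motif in capitals, the ISRE type for the first 4 and the GAS type for Irf1.
Isg15 (chr4:156200769-156201068, minus strand): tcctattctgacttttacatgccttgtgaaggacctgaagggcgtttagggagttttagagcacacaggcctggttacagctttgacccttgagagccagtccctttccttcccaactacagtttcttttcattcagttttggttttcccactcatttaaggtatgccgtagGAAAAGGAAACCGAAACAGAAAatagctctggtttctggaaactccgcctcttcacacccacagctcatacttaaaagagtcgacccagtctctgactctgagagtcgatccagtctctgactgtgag
Ifit1 (chr19:34640639-34640938, plus strand): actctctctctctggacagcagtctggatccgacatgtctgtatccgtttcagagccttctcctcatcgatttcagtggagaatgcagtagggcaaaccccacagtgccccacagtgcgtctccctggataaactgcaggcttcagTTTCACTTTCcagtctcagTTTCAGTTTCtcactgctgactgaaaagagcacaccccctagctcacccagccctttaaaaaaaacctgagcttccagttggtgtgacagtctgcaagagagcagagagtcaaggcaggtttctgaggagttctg
Rsad2 (chr12:26456403-26456702, minus strand): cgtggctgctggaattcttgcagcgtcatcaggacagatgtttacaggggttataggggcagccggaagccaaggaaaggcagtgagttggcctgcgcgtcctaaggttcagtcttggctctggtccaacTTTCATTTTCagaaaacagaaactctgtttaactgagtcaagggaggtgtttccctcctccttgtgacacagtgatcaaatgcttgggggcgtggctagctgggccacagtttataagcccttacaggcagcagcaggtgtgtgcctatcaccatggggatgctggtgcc
Igtp (chr11:58199306-58199605, plus strand): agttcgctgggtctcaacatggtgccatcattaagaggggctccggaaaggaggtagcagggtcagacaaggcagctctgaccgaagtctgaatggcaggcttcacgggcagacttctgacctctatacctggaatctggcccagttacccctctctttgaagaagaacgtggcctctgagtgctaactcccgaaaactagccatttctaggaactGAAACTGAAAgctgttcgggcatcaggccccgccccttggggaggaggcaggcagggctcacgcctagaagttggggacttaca
Irf1 (chr11:53769764-53770063, plus strand): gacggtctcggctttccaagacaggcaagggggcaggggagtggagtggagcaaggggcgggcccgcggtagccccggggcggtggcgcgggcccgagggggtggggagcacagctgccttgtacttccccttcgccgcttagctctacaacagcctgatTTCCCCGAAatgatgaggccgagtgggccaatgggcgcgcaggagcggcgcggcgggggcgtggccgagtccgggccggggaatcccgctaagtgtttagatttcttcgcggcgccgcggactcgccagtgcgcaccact
Isg15 held 3 overlapping ISRE-type matches, the first starting 78 bases before the start site, and Ifit1 held 2. Rsad2 and Igtp held 1 each, and the window of Irf1 held no ISRE-type match. Related members lie together on chromosome 3 (Gbp2, Gbp3, Gbp5 and Gbp7), chromosome 1 (Ifi203, Ifi204 and Ifi205) and chromosome 19 (Ifit1, Ifit2 and Ifit3).

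Cells were assigned by gates that used no member: a cell belonged to a type when it held UMIs of a set minimum of that type's marker genes, 1112 cells that passed the gates of different lineages were set aside as possible doublets, and 3497 passed no gate. The 8 types with at least 20 cells in every library are described: T cells (1701, 1123, 1338 and 1644 cells across the NB, 2 M, 10 M, 18 M libraries), NK cells (137 to 529 by library), B cells (2345 to 3629), alveolar macrophages (114 to 487), neutrophils (224 to 561), alveolar type II cells (34 to 505), fibroblasts (86 to 327) and endothelial cells (30 to 55). In each of them the median cell held 2 to 8 of its own markers and 0 to 2 of the markers of the best-scoring other lineage. T cells lay nearest to their limit, with 2878 of 5806 at the minimum of 2 markers. In a 3′ library a transcript gives 1 UMI whatever its length, so CPMs of different genes are set side by side without a length correction. Fewer transcripts per cell and more of other transcripts cannot be told apart in a CPM.

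The summed level was highest in endothelial cells among the 8 types in NB (4482 CPM, interval 4241 to 4732), 2 M (2909, 2652 to 3184) and 10 M (4001, 3794 to 4216). In the library labelled 18 M, endothelial cells (2375, 2186 to 2576) stood above T cells (2050, 2021 to 2079), but T cells came first there when abundant haemoglobin, secreted, ribosomal and mitochondrial genes were left out of the totals or when log2(CPM + 1) was averaged over members. Alveolar type II cells were lowest in every library, at 490, 424, 440 and 366 CPM across the NB, 2 M, 10 M, 18 M libraries, and their highest value was below the lowest of any other described type (655 CPM, in fibroblasts of the library labelled 18 M). Neutrophils held 1912, 1848, 1907 and 1451 CPM, alveolar macrophages 2187, 1400, 1417 and 1488, NK cells 1369, 1325, 1274 and 1181, and B cells 1333, 967, 1040 and 1114, in the same order of libraries. Fibroblasts had the widest range between libraries of the 8 types as a fold, with 1935, 1109, 1994 and 655 CPM. Some types with too few cells in a library to be described stood higher than endothelial cells. Patrolling monocytes held 4913 CPM in 10 M (17 cells) and 3557 CPM in the library labelled 18 M (39 cells), plasmacytoid dendritic cells 3332 CPM in the library labelled 18 M (16 cells), and conventional dendritic cells 4937 CPM in NB (31 cells). Across all kept cells the sum was 1783, 1218, 1371 and 1410 CPM.

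**Figure D1:**
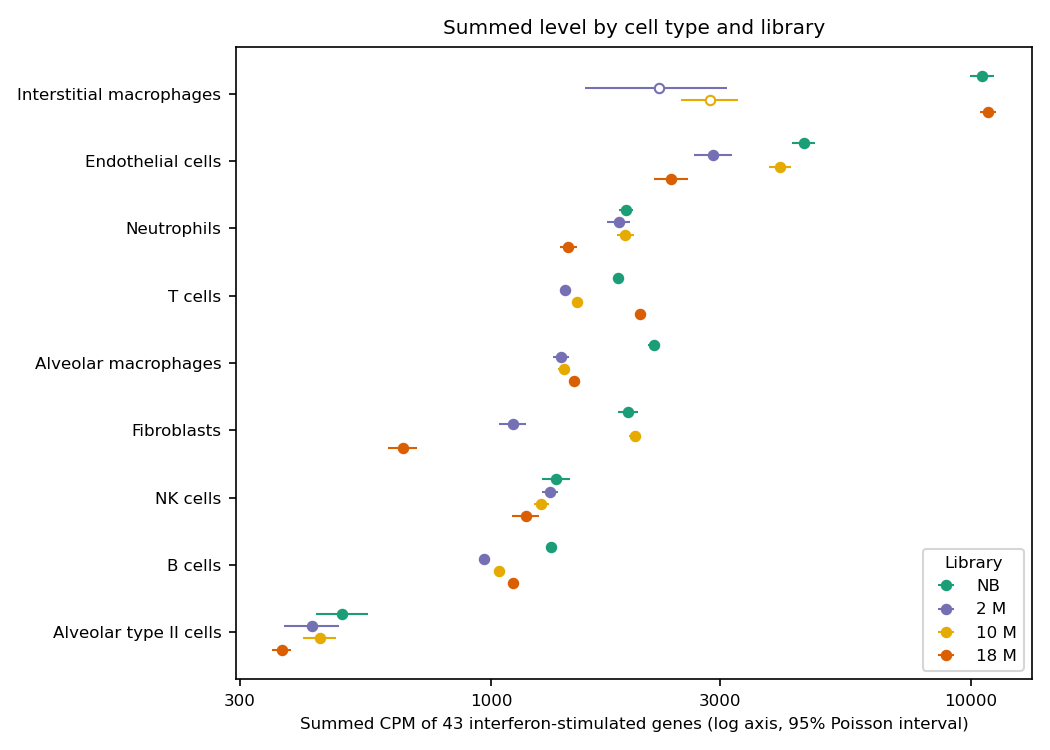
Summed CPM of the 43 interferon-stimulated genes (log axis) by cell type, one point per library with its 95% Poisson interval; open points stand for fewer than 20 cells. Endothelial cells lie highest of the 8 described types in NB, 2 M and 10 M and alveolar type II cells lowest in all 4 libraries, and the interstitial macrophages of NB and of the library labelled 18 M lie above every described type.

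A few members carried a large share of the sum, and the leading ones were not the same in every cell type. Over all cells the 3 most abundant were Ifi27l2a (29426 UMIs), a small protein named for its induction by alpha interferon, Psmb8 (26097), a catalytic subunit of the immunoproteasome that cuts peptides for antigen presentation, and Irf1 (19272), a transcription factor that both interferon arms induce. The 3 leading members of a type held 27.4% to 59.4% of its sum over the 8 types and 4 libraries. At the other end, Ifi44 (86 UMIs), Oas2 (121), Mx1 (195) and Oas1a (267) were barely counted, so their levels by type rest on few molecules. Levels by type are compared here and in what follows among the 8 described types unless another is named. By mean CPM over the 4 libraries, endothelial cells held the highest level of 22 of the 43 members, neutrophils of 6, NK cells, alveolar macrophages and fibroblasts of 5 each, and T, B and alveolar type II cells of none. The same type came first in all 4 libraries for 10 of the 22 endothelial members, 2 of the 6 of neutrophils and 2 of the 5 of alveolar macrophages. As shares, 51.2% of the members and 17.4% of 13997 genes with at least 86 UMIs had their highest mean in endothelial cells. Neutrophils held the peak of 6 of the 43 members and of 6.39% of these genes. The shares of members and of genes were 11.6% and 13.6% in NK cells, 11.6% and 10.5% in alveolar macrophages, and 11.6% and 14.5% in fibroblasts. B cells held the peak of 17.4% of all genes, alveolar type II cells of 13.3% and T cells of 6.92%.

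Among the sensors of viral nucleic acid, Ifih1 (MDA5, which binds long double-stranded RNA) was highest of the 8 types in alveolar macrophages, with 284, 163, 154 and 169 CPM across the NB, 2 M, 10 M, 18 M libraries. Its mean over the 4 libraries was 193 CPM there and 3.13 CPM in B cells, and alveolar macrophages came first of the 8 in every library. Ddx58 (RIG-I, which binds short RNA ends) was spread more evenly, between a mean of 43.4 CPM in NK cells and 18.2 CPM in alveolar macrophages, so the order of the types was different for the 2 RNA sensors. Zbp1, a sensor of Z-form nucleic acid, had its highest mean in NK cells, at 21.5 CPM, and its lowest in alveolar type II cells, at 1.18 CPM. Dhx58 (LGP2, a partner of the RNA sensors) had means of 0.656 to 7.30 CPM over the 8 types.

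The PYHIN genes, whose products bind DNA or act in the nucleus, had different leading types. Ifi205 had a mean of 120 CPM in fibroblasts against 3.77 CPM in the next type, alveolar macrophages, and fibroblasts were first in 3 of 4 libraries. Ifi204 had its highest mean in neutrophils (133 CPM) and then in alveolar macrophages (65.1 CPM). Ifi203 was broad, with means of 111 CPM in NK cells and 108 CPM in endothelial cells, and alveolar type II cells held 1.02 CPM. Of the 60-base words in the last 500 bases of Ifi205 transcripts, 37.1% also occur in other genes, its neighbour Ifi211 sharing the most. The share was 51.2% for Oas1a, 12.9% for Ifit3 and 11.1% for Gbp4. The level of these 4 members, Ifi205 included, is thus uncertain by reads that more than 1 gene could have given. Each other member shared 5.51% or less.

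The effectors also differed in their leading type. Oasl1, which restrains translation of Irf7, stood at 419, 290, 266 and 218 CPM in alveolar macrophages of the NB, 2 M, 10 M, 18 M libraries, and at a mean of 39.2 CPM in neutrophils, the next type. Isg15, the ubiquitin-like modifier, had close means in alveolar macrophages (241 CPM) and neutrophils (220 CPM), and each of these types came first in 2 libraries. Isg20, an exonuclease of single-stranded RNA, was highest of the 8 types in neutrophils in all 4 libraries (282, 273, 247 and 177 CPM), although the 166 erythroid cells of the library labelled 18 M held 326 CPM, and Oas3, which makes the oligoadenylate messenger that activates RNase L, was likewise first there (mean 33.4 CPM, against 2.19 CPM in T cells, the next type). Bst2 (tetherin, which holds budding virions at the cell surface) was highest of the 8 types in endothelial cells, at 451, 315, 425 and 278 CPM, but stood at 2777 CPM in 6 plasmacytoid dendritic cells of NB and 2153 CPM in 16 of the library labelled 18 M. All 8 guanylate-binding proteins and immunity-related GTPases on the list (Gbp2, Gbp3, Gbp4, Gbp5, Gbp7, Igtp, Irgm1 and Ifi47), families that act against intracellular microbes, had their highest mean of the 8 types in endothelial cells. Outside the 8, Igtp was at 689, 842, 454 and 983 CPM in 7 to 44 platelets a library, on 7 to 50 UMIs. Ifi44 had 26 of its 86 UMIs in the 166 endothelial cells.

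Ifi27l2a was low in NK cells beside T and B cells. NK cells held 3.22, 2.52, 8.16 and 1.27 CPM of it across the NB, 2 M, 10 M, 18 M libraries, whereas T cells of the same libraries held 291, 250, 234 and 364 CPM and B cells 189, 200, 181 and 179 CPM. Of the 26 Ifi27l2a UMIs in 1231 NK cells, 18 were in 10 M. ILC2, another lymphocyte of 10 to 140 cells a library, had 0 Ifi27l2a UMIs in 2 M and in 10 M, 2 in NB and 39 in the library labelled 18 M, where 1 cell held 43.6%. Psmb8, by contrast, was at 272, 227, 287 and 179 CPM in NK cells, and at 302, 180, 246 and 155 CPM in T cells.

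**Figure D2:**
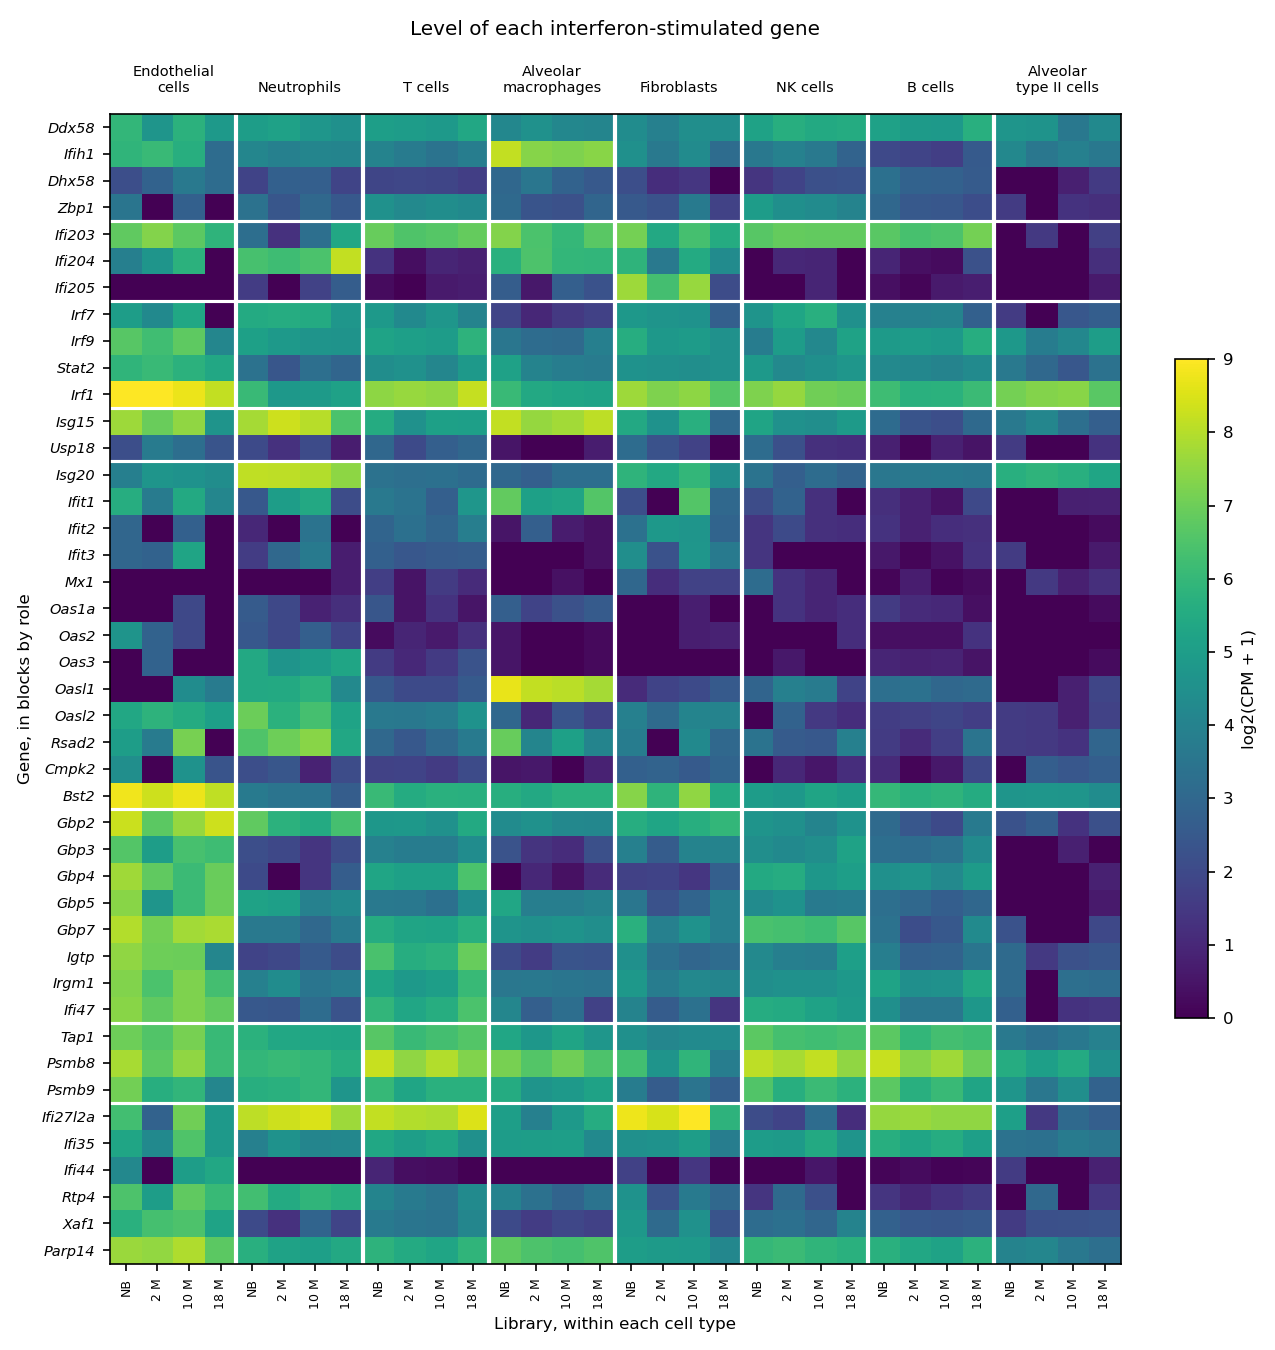
Level of each of the 43 members as log2(CPM + 1) (colour) by cell type and library, with genes in blocks by role. The block of guanylate-binding proteins and GTPases is brightest in endothelial cells, Oasl1 and Ifih1 in alveolar macrophages, Isg20 and Oas3 in neutrophils, and Ifi27l2a is dark in NK cells.

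T cells were the described type with the largest ratio of the summed level in the library labelled 18 M over 2 M. The sum was 2050 CPM against 1423 CPM (ratio 1.44, interval 1.41 to 1.47), while 10 M over 2 M gave 1.06 (1.04 to 1.09) and NB over 2 M 1.30 (1.26 to 1.33). Of 37 members with at least 30 UMIs over both libraries, 9 were at least 2-fold higher in the library labelled 18 M, where 8.6% of 10343 genes were, and 0 were at least 2-fold lower, where 1.63% of genes were. The median log2 ratio of the members was 0.54, and that of all genes tested was 0.21. Of the 9, 4 were guanylate-binding proteins or immunity-related GTPases. Igtp, one of these GTPases, had 119.7 CPM in the library labelled 18 M against 48.3 CPM in 2 M (ratio 2.48, interval 2.20 to 2.80). It had 84.0 CPM in NB and 53.7 CPM in 10 M. Gbp4 had 85.8 CPM in the library labelled 18 M against 33.3 CPM in 2 M, Ifi47 86.8 against 39.6 and Irgm1 65.3 against 28.5 CPM. The other 5 were the antiviral effectors Oas3, Ifit1, Rsad2 and Oasl2 and the ISG15 protease Usp18. Oas3 was lowest in level (3.89 CPM in the library labelled 18 M, 1.05 in 2 M, ratio 3.70, interval 1.69 to 9.19), and Ifit1, which binds viral RNA caps, had 25.2 against 9.73 CPM, with 13.8% of its UMIs of the library labelled 18 M in 1 cell.

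The most abundant members of T cells moved less. Ifi27l2a stood at 291, 250, 234 and 364 CPM, Psmb8 at 302, 180, 246 and 155 CPM and Irf1 at 178, 195, 180 and 296 CPM across the NB, 2 M, 10 M, 18 M libraries. Psmb8 was therefore lowest, and Irf1 and Ifi27l2a highest, in the same library. The lowest ratios of the library labelled 18 M over 2 M belonged to Ifi35 (21.9 against 32.2 CPM, ratio 0.679, interval 0.561 to 0.820) and Dhx58 (2.21 against 2.76 CPM, 0.799, 0.415 to 1.54). The sum of the interferon gamma arm was 1088 against 717 CPM (1.52, 1.47 to 1.57) and that of the type I arm 962 against 706 CPM (1.36, 1.32 to 1.41). Both subsets showed it. Cells with Cd4 and no Cd8 UMIs held a sum of 2390 against 1663 CPM (1.44, 1.38 to 1.501), and cells with Cd8 and no Cd4 UMIs 1754 against 1320 CPM (1.33, 1.28 to 1.38). Irf1 was at 377 against 226 CPM in the Cd4 cells and at 238 against 189 CPM in the Cd8 cells. Within the library labelled 18 M, T cells with Y-linked and no Xist UMIs held 2101 CPM and those with Xist and no Y-linked UMIs 1929 CPM, both above the 2 M value. Col1a1, a fibroblast collagen that T cells should lack, was at 11.2 CPM in these T cells against 1.18 CPM in 2 M, and the part of free RNA was not tested. T cells of NB and 2 M lay mostly in different Leiden clusters made without the members. The T-cell clusters 5 and 8 held 863 and 752 cells of NB, 119 and 98 of 2 M and 158 and 260 of the library labelled 18 M. Clusters 2 and 4 held 215 and 336, 689 and 597, and 1118 and 586, in the same order. The part of this in the ratios was not tested.

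In B cells the sum differed little between 18 M and 2 M, but its make-up did. The sum was 1114 CPM in the library labelled 18 M against 967 CPM in 2 M (ratio 1.15, interval 1.12 to 1.18), with 10 M over 2 M at 1.07 (1.05 to 1.10). Of 34 members, 9 were at least 2-fold higher (9.01% of 10572 genes) and 1 was at least 2-fold lower (3.91% of genes), and the members' median log2 ratio was 0.42 beside 0.12 for all genes. Of the 3 most abundant members, Psmb8 and Ifi27l2a had ratios below 1 and Ifi203 one above 1. Psmb8 stood at 300.3, 163, 212 and 126 CPM across the NB, 2 M, 10 M, 18 M libraries, Ifi27l2a at 189, 200, 181 and 179 CPM, and Ifi203 at 103, 82.4, 89.0 and 138 CPM. The largest ratios were of members near the limit of detection: Cmpk2, a mitochondrial nucleotide kinase that neighbours Rsad2 on chromosome 12, had 29 UMIs in the library labelled 18 M against 1 in 2 M (ratio 30.2, interval 5.01 to 1235), and Ifi204 had 37 against 3 UMIs (12.9, 4.07 to 65.2). Rsad2 (viperin, which makes a chain-terminating nucleotide) was at 10.0 against 1.14 CPM, with 1.93 in NB and 2.15 in 10 M (ratio 8.78, interval 4.81 to 17.5). Gbp7 had 18.6 CPM in the library labelled 18 M against 3.33 CPM in 2 M, with 9.43 in NB and 4.58 in 10 M (5.57, 3.87 to 8.24). Irf7, the factor that drives alpha interferon genes, went the other way, with 5.75 CPM in the library labelled 18 M and 14.7, 14.5 and 15.1 CPM in NB, 2 M and 10 M (ratio to 2 M 0.398, 0.289 to 0.542). Zbp1, the next lowest, had 3.37 against 4.76 CPM (0.709, 0.445 to 1.12). B cells of these libraries lay mostly in different Leiden clusters made without the members. The B-cell clusters 1 and 16 held 2104 and 398 cells of the library labelled 18 M and 334 and 7 of 2 M, whereas clusters 0, 3 and 6 held 54, 49 and 24 cells of the library labelled 18 M and 1397, 589 and 427 of 2 M. The part of this in the ratios was not tested.

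B cells of the library labelled NB had the higher sum, 1333 CPM against 967 CPM in 2 M (1.38, 1.34 to 1.41), and there the antigen-processing genes led. Their sum was 513 CPM in NB against 275 CPM in 2 M, with 358 CPM in 10 M, and the library labelled 18 M had 234 CPM. At least 2-fold higher in NB were 3 of 31 members (2.67% of 10381 genes), namely Gbp7, Igtp and Psmb9, and 0 were at least 2-fold lower (1.72% of genes).

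The sum of NK cells was 1181 CPM in the library labelled 18 M against 1325 CPM in 2 M (ratio 0.891, interval 0.826 to 0.961) and 0.962 (0.911 to 1.01) for 10 M over 2 M. Of 25 members, 1 was at least 2-fold higher (3.34% of 7225 genes) and 2 were at least 2-fold lower (6.75% of genes), close to the share of all genes. Psmb8 is given above, Irf1 stood at 153, 191, 131 and 121 CPM and Ifi203 at 101, 117, 113 and 115 CPM across the NB, 2 M, 10 M, 18 M libraries. Igtp was the member that was higher in the library labelled 18 M, at 33.1 against 13.6 CPM (2.43, 1.36 to 4.32), followed by Gbp3 at 35.6 against 18.2 CPM (1.96, 1.15 to 3.30). The lower ones were Oasl1, with 2 UMIs in the library labelled 18 M against 28 in 2 M (0.18, 0.0208 to 0.714), and Ifih1, with 5 against 29 UMIs (0.435, 0.131 to 1.14).

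**Figure D3:**
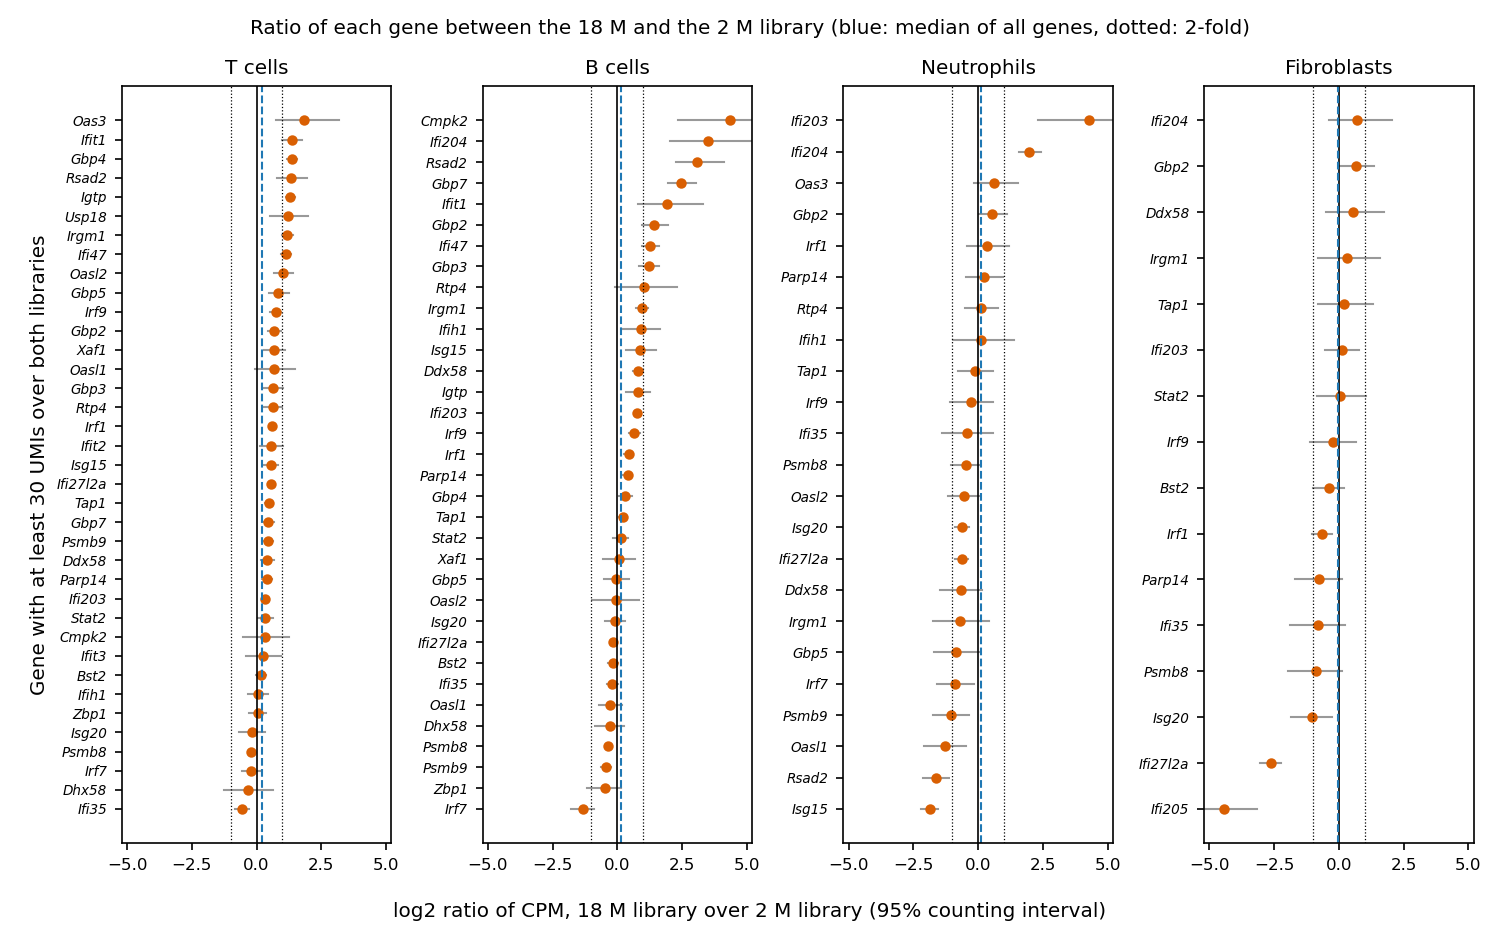
log2 ratio of CPM of the library labelled 18 M over 2 M for each member with at least 30 UMIs over both, in T cells, B cells, neutrophils and fibroblasts, with 95% counting intervals (cut at the frame), a dashed line at the median of all genes and dotted lines at 2-fold. Most T-cell points lie right of 0, neutrophils combine Ifi203 and Ifi204 on the right with Isg15 and Rsad2 on the left, and in fibroblasts Ifi205 and Ifi27l2a lie far left.

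Neutrophils had a lower sum in the library labelled 18 M, 1451 CPM against 1848 CPM in 2 M (ratio 0.785, interval 0.733 to 0.841), while NB and 10 M each gave 1.03 over 2 M. Of 23 members, 4 were at least 2-fold lower (3.72% of 4409 genes) and 2 were at least 2-fold higher (11.1% of genes), with a median log2 ratio of -0.48 beside 0.13 for all genes. Ifi27l2a stood at 277, 320, 361 and 207 CPM across the NB, 2 M, 10 M, 18 M libraries, and Isg20 at 282, 273, 247 and 177 CPM. Isg15 had the lowest ratio, with 86.6 CPM in the library labelled 18 M and 217, 317 and 258 CPM in the others (0.273, 0.219 to 0.341), and Rsad2 followed with 41.4 CPM against 90.3, 127 and 166 CPM (0.325, 0.232 to 0.454). Oasl1 (17.7 against 42.8 CPM) and Psmb9 (24.9 against 51.4 CPM), an immunoproteasome subunit, were the other lower members. Ifi204 went the other way, at 288.8 CPM in the library labelled 18 M and 83.3, 72.8 and 85.9 CPM in NB, 2 M and 10 M (ratio to 2 M 3.97, 2.96 to 5.41). Ifi203 had 63 UMIs in the library labelled 18 M against 1 in 2 M (29.0, 5.01 to 1162), and 1 cell held 34.9% of the 63. Ifit1 lay under the limit of 30 UMIs, and 1 cell held 86.4% of its 22 UMIs in 2 M. The neutrophils of these libraries lay in different Leiden clusters of the cells, made without the members: 1 cluster held 20 cells of the library labelled 18 M and 242 of 2 M, and another 511 and 0. The ratios thus set side by side cells that also differ in other genes, and the part of that was not tested. Neutrophils in the library labelled 18 M also held fewer UMIs per cell (median 2497.5, against 3028.5 in 2 M).

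Alveolar macrophages differed in NB rather than in the library labelled 18 M. Their sum was 2187 CPM in NB against 1400 CPM in 2 M (ratio 1.56, interval 1.49 to 1.64), whereas 18 M over 2 M gave 1.06 (1.02 to 1.11) and 10 M over 2 M 1.01 (0.965 to 1.06). In NB over 2 M, 6 of 25 members were at least 2-fold higher (2.88% of 7544 genes) and 0 were at least 2-fold lower (1.41% of genes), and the members' median log2 ratio was 0.57. The 6 were Rsad2, Ifit1, Gbp5, Ifi47, Ifi27l2a and Stat2, the last a subunit of the type I signalling complex. Rsad2 had 118 CPM in NB and 16.3, 33.3 and 15.6 CPM in 2 M, 10 M and 18 M (NB over 2 M 7.22, 4.99 to 10.8), although 81.2% of the 2 M UMIs were in 1 cell. Ifit1 was at 113, 33.6, 37.0 and 95.4 CPM across the NB, 2 M, 10 M, 18 M libraries, so that it was higher in both the youngest and the oldest label. Isg15 stood at 286, 189, 216 and 272 CPM. In the library labelled 18 M over 2 M, 2 of 27 members were at least 2-fold higher (5.18% of 8836 genes) and 1 was at least 2-fold lower (2.77% of genes). Those were Ifi27l2a at 46.7 against 14.3 CPM (3.27, 2.22 to 5.02), Ifit1 (2.84, 2.20 to 3.72) and Dhx58 at 4.77 against 10.7 CPM (0.446, 0.246 to 0.822), and Ifi35 came next lowest at 18.1 against 31.1 CPM (0.582, 0.422 to 0.810).

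Fibroblasts of 2 M lay between those of the other libraries. Their sum was 655 CPM in the library labelled 18 M against 1109 CPM in 2 M (ratio 0.591, interval 0.536 to 0.651), and 1994 CPM in 10 M against the same 1109 CPM (1.80, 1.67 to 1.93), so that the 2 older labels lay on opposite sides of 2 M. NB over 2 M was 1.74 (1.61 to 1.89). In the library labelled 18 M over 2 M, 3 of 16 members were at least 2-fold lower (4.58% of 6699 genes) and 0 were at least 2-fold higher (6.08% of genes). The members' median log2 ratio was -0.32 beside -0.042 for all genes, with 7 of the 16 above 0 and 9 below. Ifi205 led, with 3.24 CPM in the library labelled 18 M, which is 4 UMIs in 155 cells, against 203, 78.9 and 194 CPM in NB, 2 M and 10 M (ratio to 2 M 0.0411, 0.0109 to 0.111). Ifi27l2a, the most abundant member, stood at 434, 346, 576 and 55.9 CPM (0.162, 0.122 to 0.211), and Isg20 at 57.2, 42.0, 61.1 and 20.3 CPM (0.483, 0.275 to 0.837). Irf1, second in UMIs, was at 203, 154, 177 and 98.1 CPM. The highest ratios were of Ifi204 (19.5 against 11.5 CPM, 1.70, 0.763 to 4.15) and Gbp2 (61.6 against 38.2 CPM, 1.61, 1.05 to 2.55). The arms as listed gave unequal ratios: the type I sum was 383 against 819 CPM (0.467, 0.414 to 0.527) and the interferon gamma sum 272 against 290 CPM (0.939, 0.791 to 1.12). Ifi205 and Ifi27l2a, with the lowest ratios above, both belong to the type I arm. The arms were not summed without them. Left without the 3 most abundant members of the series, Ifi27l2a among them, the log2 ratio of the sum moved to -0.26 in place of -0.76. Within that library, fibroblasts with Y-linked and no Xist UMIs held 776 CPM (59 cells) and those with Xist and no Y-linked UMIs 445 CPM (41 cells), both below the 2 M value. H19, given above, was counted in the fibroblasts of this library alone, and Igf2, another growth gene of the young animal, stood at 191 CPM there against 15.3 CPM in 2 M.

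Fibroblasts of NB and of 10 M both had higher sums than those of 2 M. In NB over 2 M, 7 of 18 members were at least 2-fold higher (4.11% of 6036 genes) and 0 at least 2-fold lower (3.13% of genes). In 10 M over 2 M, 12 of 31 were at least 2-fold higher (3.73% of 8365 genes) and 0 at least 2-fold lower (2% of genes). Both comparisons use the 2 M library. Bst2 stood at 163, 57.3, 179 and 43.8 CPM across the NB, 2 M, 10 M, 18 M libraries, and Psmb8 at 75.8, 24.2, 58.7 and 12.97 CPM, and both were higher in NB and in 10 M than in 2 M. Ifi204 (57.2, 11.5, 44.6 and 19.5 CPM) was also higher in NB and in 10 M than in 2 M, where it was lowest. Ifit1 was concentrated in few cells: 10 M held 277 UMIs (95.04 CPM) and 2 M none, at least 24.9-fold higher against a floor of 3 UMIs, but 65.0% of the 277 lay in 1 cell. Rsad2, with 54 UMIs in 10 M and 0 in 2 M, had 38.9% in 1 cell. The Ifng UMIs of 10 M fibroblasts, 54 in number, lay almost wholly in 1 cell of 327, which held 53. Leaving out the cell with the most member UMIs in each library, an alternative chosen after seeing the data, left the log2 ratio of 10 M over 2 M at 0.87 (0.85 with it).

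Endothelial cells were few. Irf1 stood at 688, 587, 428 and 290 CPM across the NB, 2 M, 10 M, 18 M libraries, Bst2 at 451, 315, 425 and 278 CPM, and Gbp2 at 310, 105, 191 and 318 CPM, so the transcription factor and the GTPase were in opposite order between 2 M and the library labelled 18 M. The sum was 2375 CPM in the library labelled 18 M against 2909 CPM in 2 M (ratio 0.817, interval 0.722 to 0.924), with 1.38 (1.24 to 1.53) for 10 M over 2 M and 1.54 (1.39 to 1.72) for NB over 2 M. In the library labelled 18 M over 2 M, 2 of 12 members were at least 2-fold higher (7.22% of 2674 genes) and 2 at least 2-fold lower (7.33% of genes). Gbp5 had 127 against 24.7 CPM (5.12, 1.81 to 20) and Gbp2 a ratio of 3.03 (1.78 to 5.47), and 1 cell of 30 held 54.8% of the Gbp5 UMIs and 34.6% of the Gbp2 UMIs of that library. Ifi203 had 57.1 against 161 CPM (0.356, 0.172 to 0.707) and Irf1 a ratio of 0.494 (0.358 to 0.679). In NB over 2 M, 6 of 18 members were at least 2-fold higher (4.04% of 2722 genes) and 0 at least 2-fold lower (6.98% of genes): Gbp5, Gbp3, Gbp2, Rtp4, Psmb9 and Psmb8. Only 12 to 21 of the 43 members reached 30 UMIs over 2 libraries in these cells.

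Alveolar type II cells, which make surfactant, had little of most members. Irf1 (138, 160, 167 and 103 CPM across the NB, 2 M, 10 M, 18 M libraries), Isg20 (49.99, 56.4, 50.2 and 37.7 CPM) and Psmb8 (46.1, 32.7, 44.3 and 21.3 CPM) were the members with the most UMIs. The 3 leading members of a library made up 47.0% to 59.4% of its sum. Of the guanylate-binding proteins, Gbp2 had 26 UMIs, Gbp7 17, Gbp4 4, Gbp5 3 and Gbp3 1 over all 671 cells. The sum was 366 CPM in the library labelled 18 M against 424 CPM in 2 M (ratio 0.864, interval 0.754 to 0.994), a ratio that turned above 1 under other ways of summing, and 10 M over 2 M was 1.04 (0.890 to 1.21). Of 17 members, 4 were at least 2-fold higher (11.2% of 9476 genes) and 1 was at least 2-fold lower (3.5% of genes). This type held 5302822 UMIs in the library labelled 18 M (505 cells) and 549915 in 2 M (38 cells). The UMI minimum is set over both libraries together, so a member could pass it on the larger library alone. No direction is drawn from these counts, because the part of this imbalance in them was not tested. Irgm1, an autophagy-linked GTPase, had 43 UMIs in the library labelled 18 M and 0 in 2 M (at least 1.49-fold higher against a floor of 3 UMIs), and Rsad2 had 35 against 1 UMI (3.63, 0.610 to 147). Isg15 had 5.66 against 16.4 CPM (0.346, 0.16 to 0.828) and Parp14 8.86 against 16.4 CPM (0.542, 0.262 to 1.26).

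Of 19 interferon genes looked for, 7 had any UMI and 2 had at least 30 in all cells: Ifng and Ifnb1. Ifng (interferon gamma) had 1901 of its 4720 UMIs in NK cells, at 565, 279, 328 and 347 CPM across the NB, 2 M, 10 M, 18 M libraries, and 1666 in T cells, at 103, 7.10, 49.6 and 14.5 CPM. The interferon gamma arm of T cells, in the same order, summed to 964, 717, 801 and 1088 CPM, and a link between this sum and Ifng was not tested. T cells of NB and 2 M lay mostly in different clusters, as given above, and the part of that in the Ifng levels was not tested. In B cells, which should lack the gene, 0.69 to 4.36 CPM were counted.

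Ifnb1 (interferon beta) sat in a small group of cells. Of its 303 UMIs in the library labelled 18 M, 267 (88.1%) were in 15 of 25 cells of the interstitial macrophage gate, which asks for at least 2 of the 3 complement C1q genes. In NB the same gate held 32 of 50 UMIs, in 5 of 21 cells, in 10 M 4 of 50, in 3 of 12 cells, and in 2 M all 7, in 1 of 2 cells. Of the rest of the 10 M UMIs, 41 were in cells set aside for passing gates of different lineages. Alveolar macrophages held 28 Ifnb1 UMIs in 11 of 487 cells in the library labelled 18 M.

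The same interstitial macrophages held the highest sum of the 19 gated types in NB, 10560 CPM (21 cells), and in the library labelled 18 M, 10849 CPM (25 cells). In 10 M they stood at 2862 CPM (12 cells), below patrolling monocytes, endothelial cells and classical monocytes. The 2 M value, 2242 CPM, comes from 2 cells, and no ratio to it is drawn. Rsad2 led, at 2848 CPM in NB and 2806 CPM in the library labelled 18 M, then Ifit1 at 1963 and 1514 CPM and Isg15 at 1167 and 1186 CPM. In NB, 1 cell held 61.2% of the Rsad2 UMIs, and in the library labelled 18 M the leading cell held 23.2% and 18 of 25 cells had a UMI. In the library labelled 18 M, the 15 cells with an Ifnb1 UMI had a median sum of 12014 CPM (5095 to 25374) and the 10 without one 5118 CPM (1051 to 10718), and the cells with Ifnb1 were deeper (median 10838 UMIs against 6864). In NB the medians were 18264 CPM in 5 cells and 1551 CPM in 16 cells, at 10048 and 1698.5 UMIs per cell. In 10 M the medians were 2750 CPM in 3 cells and 1533 CPM in 9 cells, and the 2 highest cells (8374 and 4787 CPM) held no Ifnb1. In 2 M the cell with Ifnb1 had 2208 CPM and the cell without it 2304 CPM. The ranges overlap in NB, 10 M and the library labelled 18 M, the part of depth was not tested, and the cells of 1 library are not replicates.

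**Figure D4:**
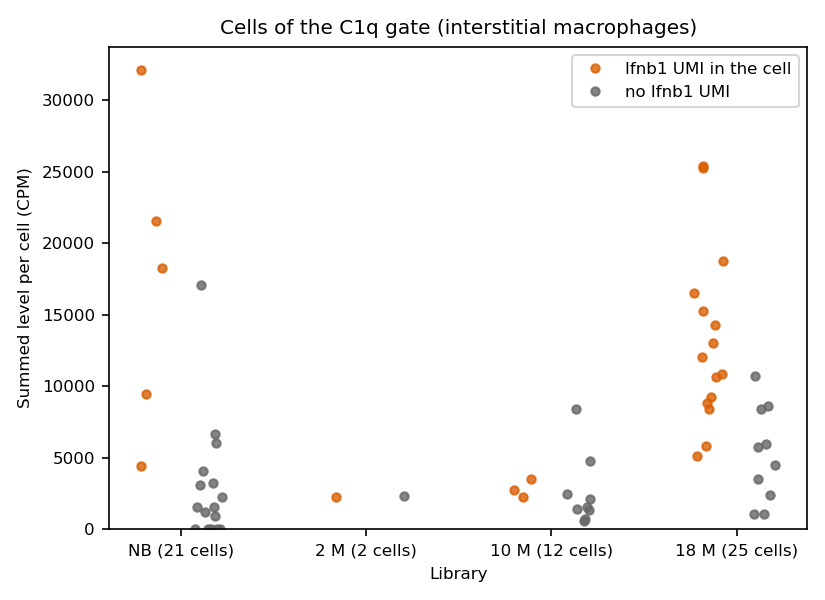
Summed level of the 43 members in single cells of the interstitial macrophage gate (CPM) by library, coloured by whether the cell held an Ifnb1 UMI. In the library labelled 18 M, 15 of 25 cells held Ifnb1, with sums of 5095 to 25374 CPM, and the 3 highest NB cells also held it, while the highest 10 M cell did not.

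The receptors and signal carriers were all counted. All 16 genes of that list (receptor chains, kinases, regulators and their inhibitors) had at least 30 UMIs over all cells, led by Jak1 and Ifngr1. Jak1, a kinase shared by the interferon receptors, stood at 340, 410, 368 and 312 CPM over all cells of the NB, 2 M, 10 M, 18 M libraries, and Ifngr1, the ligand-binding chain of the interferon gamma receptor, at 363, 389, 370 and 226 CPM. For the library labelled 18 M over 2 M, 0 of 15 were at least 2-fold higher or lower in T cells (8.6% and 1.63% of all genes) and 0 of 14 in NK cells (3.34% and 6.75%). In B cells 1 of 15 was higher (9.01%), in alveolar macrophages 1 of 15 (5.18%) and in neutrophils 2 of 15 (11.1%), with 0 lower in each. Alveolar type II cells had 1 higher and 1 lower of 16 (11.2% and 3.5%), fibroblasts 0 higher and 1 lower of 12 (6.08% and 4.58%), and endothelial cells 2 higher and 1 lower of 7 (7.22% and 7.33%). Their median log2 ratio lay between -0.17, in NK cells, and 0.16, in T cells.

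Single cells with several core type I genes were rare in the described types. After thinning every cell to 1000 UMIs, 5 of 24 interstitial macrophages in the library labelled 18 M (20.8%, exact interval 7.13% to 42.2%) and 4 of 14 in NB (28.6%, 8.39% to 58.1%) held at least 4 of 12 core type I genes, among them Isg15, Ifit1, Rsad2, Oasl1 and Irf7. Conventional dendritic cells of NB gave 4 of 31 (12.9%). In T cells NB had 3 of 1696, 2 M had 0 of 1123, 10 M had 1 of 1338 and the library labelled 18 M had 3 of 1641, and 0 of 1123 allows a share of up to 0.267%, taken as 3 cells of the total (the exact upper bound is 0.328%). In B cells 0 of 2334, 2665, 3622 and 2567 cells did. Neutrophils had 7 of 544, 2 of 216, 1 of 376 and 0 of 476. Without thinning the shares were 76.0% in interstitial macrophages and 1.09% in T cells of the library labelled 18 M, and 23.0% in alveolar macrophages of NB, whose cells were deep. The differences between the T-cell shares were within counting error at this depth. Erythroid cells, the type set beside them as background, gave 2 of 165 (1.21%) in the library labelled 18 M. Their sum was 1389 CPM with 46.5% of it Rsad2, so they were not free of these genes.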

How the data were processed

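Whole-lung cells of 4 ages were profiled as 1 droplet library per age. The authors deposited UMI count matrices per gene and barcode, made with Cell Ranger 3.0.2 (the matrix headers name 3.1.0) on mm10, per the study's methods and the submitters' processing notes. These raw counts were used with no other normalization, and barcodes had already been called as cells.

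A cell was kept with more than 200 but fewer than 5000 genes, no more than 25000 UMIs and a mitochondrial share below 8%, after the limits the study states. The study reports fewer cells than were kept here, so the cells are not the same set. Types were set by marker gates, and no doublet caller was run. UMIs were summed per type and library and scaled to 1000000. A member counted as at least 2-fold higher or lower by its ratio, with 0.5 UMI added to each side, among genes with at least 30 UMIs over both libraries. A library at 0 was set to a floor of 3 UMIs for a lower bound. Members named per type were the 3 with the most UMIs and the 2 at each end of the 18 M over 2 M ratios; others were named by role or because they passed 2-fold. Members, lists and markers were chosen with earlier results of these data known. The ratio calls and the intervals were tested on simulated T-cell counts with counting error alone. Gates, thinning and clusters were not simulated. Sums and intervals came from scipy 1.17.1 and pandas 2.3.3 under Python 3.11.15. The Leiden clusters of the alternative came from leidenalg 0.10.2 and igraph 0.11.9. Libraries held 33087004 to 64863474 UMIs over 6283 to 11297 barcodes, and intervals cover counting error only. Alternatives covered cell limits, gates, clusters, totals, ways of summing, folds and UMI minimums.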

Additional observations from a re-analysis of the deposited data

Results flagged for a closer look

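The summed level of the interferon-stimulated genes went opposite ways in different cell types under the same contrast. The ratio of the library labelled 18 M over 2 M was 1.44 in T cells and 0.591 in fibroblasts. These were the highest and the lowest of the 8 described types, and the intervals of counting error lay on opposite sides of 1. Of the members tested, 32 had a ratio above 1 and 5 below in T cells, but 7 above and 9 below in fibroblasts. The median log2 ratio of all genes tested was 0.21 in T cells and -0.042 in fibroblasts. The share of all genes with a ratio above 1 was not counted. Without the 3 most abundant members of the series, or as a mean of log2 values, the fibroblast ratio lay nearer to 1. The difference between the types was not tested, because each age has 1 library.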

How the results depend on the processing

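No paired analysis was possible because each age has 1 library, and for the same reason no replicate could be left out. Of 180 values of the main sums and counts under alternatives, 117 stayed close, 61 moved and 2 turned; of 640 values of the other results, 481 stayed close, 156 moved and 3 turned. Log2 ratios of sums follow, main value first. The setting with a Y-linked UMI kept cells of the library labelled 18 M that held such a UMI and no Xist UMI. Cells of the other libraries were not selected in this way. T cells, 18 M over 2 M (0.53), gave 0.48 with mixed cells kept, 0.41 with totals without abundant genes, 0.63 without the 3 most abundant members, 0.56 in 18 M cells with a Y-linked UMI and 0.44 against 10 M. B cells, NB over 2 M (0.46), gave 0.51 with Leiden clusters, 0.40 as a mean over cells and 0.37 as a mean of log2(CPM + 1). Alveolar macrophages, NB over 2 M (0.64), gave 0.50 as a mean of log2 values and 0.72 without the cell with the most member UMIs in each library, the last setting being chosen after seeing the data. Neutrophils, 18 M over 2 M (-0.35), gave -0.11 as a mean of log2 values, -0.23 in cells with a Y-linked UMI and -0.21 without the leading cells. The 170 neutrophils with Y-linked and no Xist UMIs held 1574 CPM. The 34 with Xist and no Y-linked UMIs held 1518 CPM, and all 488 of that library 1451 CPM. Fibroblasts, 18 M over 2 M (-0.76), gave -0.61 with Leiden clusters, -0.54 as a mean over cells, -0.26 without the 3 most abundant members, -0.12 as a mean of log2 values, -0.52 in cells with a Y-linked UMI and -1.61 against 10 M. Fibroblasts, NB over 2 M (0.80) and 10 M over 2 M (0.85), both gave 0.67 as a mean over cells, and 1.06 and 1.01 without the 3 most abundant members. Alveolar type II cells, 18 M over 2 M (-0.21), turned to 0.16 as a mean over cells, 0.044 without the 3 most abundant members and 0.47 as a mean of log2 values.

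Endothelial cells over the next type in NB (1.03) gave 0.90 with Leiden clusters, 0.87 with totals without abundant genes and 0.84 without the 3 most abundant members. In 2 M (0.65) they gave 0.45 with those totals and 0.41 as a mean over cells, and in 10 M (1.005) 0.89 with Leiden clusters, 1.16 without the 3 most abundant members and 1.31 as a mean of log2 values. In the library labelled 18 M (0.21) they gave 0.081 with no upper limits on cells, 0.33 with 1 marker more per gate, 0.35 with Leiden clusters, 0.067 as a mean over cells, 0.59 without the 3 most abundant members and 0.37 in cells with a Y-linked UMI, and turned to -0.16 with totals without abundant genes and -0.29 as a mean of log2 values. Counts of members past the fold moved as follows. In 18 M over 2 M, T cells (9 higher) gave 17 at 1.5-fold and 1 at 3-fold, and B cells (9 higher) 16, 5, 5 with at least 100 UMIs and 14 with 1 marker more. Neutrophils (4 lower) gave 10 at 1.5-fold, 2 at 3-fold and 2 with at least 100 UMIs, and fibroblasts (3 lower) 7 at 1.5-fold, 6 with at least 10 UMIs, 1 with at least 100 UMIs, 5 with 1 marker more and 6 with Leiden clusters. In NB over 2 M, alveolar macrophages (6 higher) gave 12 at 1.5-fold, 2 at 3-fold and 10 with at least 10 UMIs, and fibroblasts (7 higher) 4 at 3-fold, 16 with at least 10 UMIs, 3 with at least 100 UMIs and 12 with Leiden clusters. In 10 M over 2 M, fibroblasts (12 higher) gave 19 at 1.5-fold, 5 at 3-fold and 6 with at least 100 UMIs. The cause of these moves was not tested. Depth limits members under 30 UMIs and types with few cells, and the spread between mice is unknown.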
